A study of Homo sapiens with 12 samples.

Results

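The miR-200 family and miR-375 are microRNAs of epithelial and endocrine cells, and their levels were followed here in K562, a human erythroleukaemia line that grows in suspension. Strands were taken by name, as every table entry of miR-200a, miR-200b, miR-200c, miR-141, miR-429 and miR-375, and this gave 9 mature strands among 952 microRNAs in the 2 tables, 7 of the 9 with a value in both. The 12 small-RNA libraries formed 4 groups of 3. The groups were K562 cells whose guide targets CYRANO, a long non-coding RNA (sgCYRANO), K562 cells with a non-targeting guide (sgNT), ZSWIM8-/- K562 cells (ZSWIM8 KO) and wild-type K562 cells (WT), the last pair with no guide listed. The labels describe biological triplicates and do not say whether a line is a single clone or a pool, nor which form of Cas9 the guides were used with. In target-directed microRNA decay, a target RNA with extensive pairing sends its microRNA to degradation; CYRANO does so to miR-7, and ZSWIM8 is the substrate receptor of the ubiquitin ligase that carries the decay out.

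MicroRNAs guide Argonaute to messenger RNAs mainly through the seed, bases 2 to 8 of the mature strand. The miR-200 family is known for repressing ZEB1 and ZEB2, transcription factors that silence E-cadherin, and so for holding epithelial cells in the epithelial state. miR-375 is best known from pancreatic islets, where it restrains insulin secretion, and from other neuroendocrine and epithelial tissues. Neither is a hallmark of erythroid or myeloid cells.

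The sequences show how the family divides, since a single base in the seed separates its 2 target classes. RefSeq (GRCh38.p14) held 8 of the 9 strands. The 3p strands, which set the 3 target classes discussed here, are shown, and the capitals mark the seed; the species prefix hsa is dropped elsewhere.
hsa-miR-200b-3p: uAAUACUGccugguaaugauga
hsa-miR-200c-3p: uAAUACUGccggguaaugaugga
hsa-miR-429: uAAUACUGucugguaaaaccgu
hsa-miR-200a-3p: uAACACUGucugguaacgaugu
hsa-miR-141-3p: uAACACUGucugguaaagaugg
hsa-miR-375-3p: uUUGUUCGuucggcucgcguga
Counted from the 5′ end, miR-200b-3p and miR-200a-3p differ by U4C within the seed. The seed AAUACUG was shared by 3 microRNAs of the tables, all of them family members, the seed AACACUG by 2, and UUGUUCG was found in miR-375-3p alone. Over the 22 positions compared, miR-200b-3p and miR-200c-3p differ only by U11G and A22G, and miR-200a-3p and miR-141-3p only by C17A and U22G. The sources used here do not say how reads that fit both members of such a pair were assigned, and the division of reads within each pair is uncertain.

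The family comes from 2 loci. MIR200B, MIR200A and MIR429 lie on the + strand of chromosome 1 between 1167104 and 1169087 (GRCh38.p14), with no other gene of GENCODE release 29 over them. MIR200C and MIR141 lie on the + strand of chromosome 12, at 6963699 to 6963766 and 6964097 to 6964191, within an intron of the long non-coding host gene MIR200CHG and 330 bases apart. MIR375 lies on the - strand of chromosome 2 at 219001645 to 219001708, with no other annotated gene over it.

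The values came from the authors' deposited tables of their 2 edgeR comparisons, with 837 microRNAs for sgCYRANO and sgNT and 868 for ZSWIM8 KO and WT. The headers name no direction, and the second-named group was read as the numerator; read the other way, the 2 groups of a comparison would exchange their values and depths. Group means in CPM, counts scaled to 1 common library total, were recovered from the deposited log2 fold change and mean log2 CPM. Low group means fell on sums of whole reads, which gave library totals of 1670000 to 1850000 reads in sgCYRANO, 1550000 to 2300000 in sgNT, 2090000 to 2490000 in ZSWIM8 KO and 861000 to 1850000 in WT. A count of 3 reads over a group corresponds to 0.567, 0.546, 0.425 and 0.788 CPM in that order. Where only 1 combination of reads gave a group mean, the values of single libraries are printed, from the deepest to the shallowest, since they cannot be tied to replicate numbers. On this reading miR-7-5p, the microRNA that CYRANO sends to decay, had 34883 CPM in sgCYRANO and 6102 CPM in sgNT. It had 23492 CPM in ZSWIM8 KO and 4616 CPM in WT. A higher level is what loss of its decay would give, and the other reading would make it lower. The values of miR-7-5p therefore bear on the direction taken and are no separate check of the system.

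The cells had the microRNAs of their lineage. The 6 erythroid strands of a fixed list, led by miR-486-5p, summed to 13936 CPM in sgCYRANO, 13611 in sgNT, 15999 in ZSWIM8 KO and 16623 in WT. The miR-200 family summed to 89.1, 88.9, 108.6 and 120.4 CPM in these groups. The 10 measured strands of a fixed list of other epithelial microRNAs summed to 6086, 6267, 5428 and 7430 CPM in the same order. Of that list, miR-182-5p had 1239 to 2546 CPM. Of the skin and squamous markers, miR-203a-3p stayed at or below 0.952 CPM in each group, and miR-205-5p had no entry in the tables used here. From the same list, miR-944 and miR-31-5p had 12.7 and 5.66 CPM in WT, their highest levels.

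One strand made up most of the family. miR-200c-3p had 70.8 CPM in sgCYRANO, 68.8 in sgNT, 87.9 in ZSWIM8 KO and 94.6 in WT, which was 79.4%, 77.4%, 81.0% and 78.5% of the family sum. It ranked 164th by mean among the 837 microRNAs of the first table and 150th among the 868 of the second. miR-200b-3p, its closest relative in sequence, followed with 9.60, 11.1, 11 and 15.7 CPM, and miR-200a-3p, of the other seed class, with 3.80, 5.06, 5.49 and 5.15 CPM. The 95% Poisson intervals of these 3 strands, which cover counting error only, did not overlap in any of the 4 groups. The lower strands miR-429, miR-200a-5p and miR-141-3p lay between 0.180 and 2.02 CPM, and their order could not be resolved by counting error in any group. By seed class, AAUACUG strands summed to 82.1, 80.9, 100.1 and 112.3 CPM in sgCYRANO, sgNT, ZSWIM8 KO and WT, and AACACUG strands to 5.46, 6.42, 6.88 and 5.33 CPM.

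**Figure D1:**
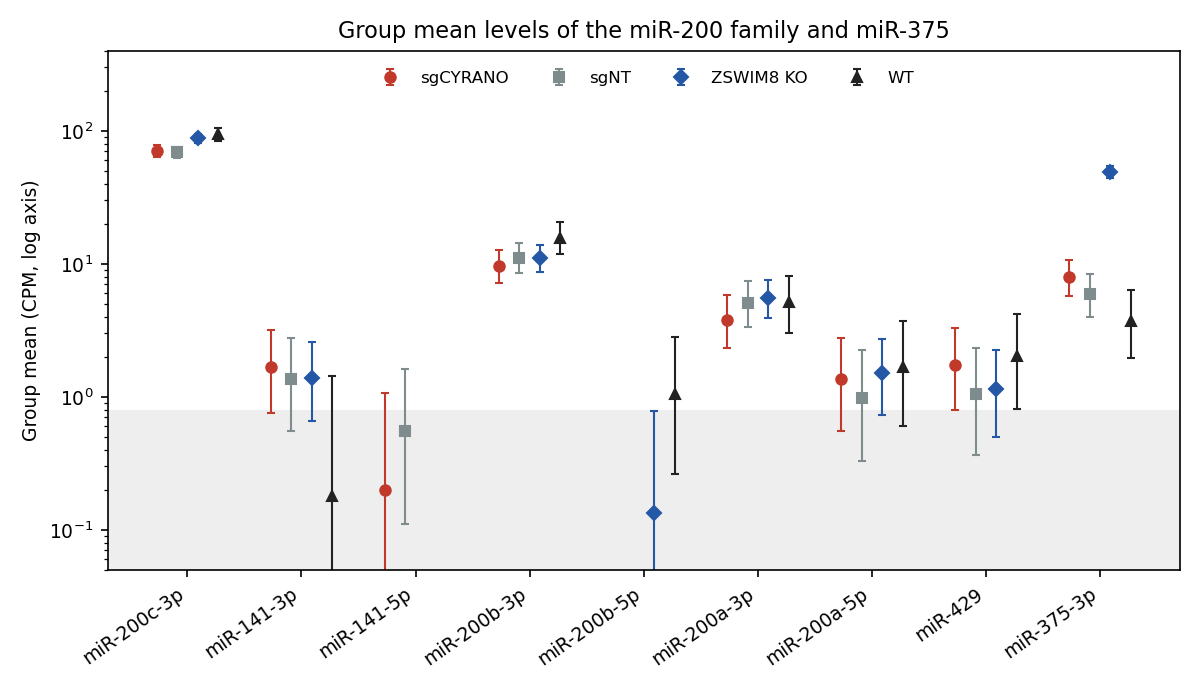
Group mean CPM (log axis) of the 9 strands in sgCYRANO, sgNT, ZSWIM8 KO and WT; bars are 95% Poisson intervals, which cover counting error only, and the grey band lies below the CPM of 3 reads in the shallowest group; 3 bars run on below the axis. miR-200c-3p sits at 68.8 to 94.6 CPM in all 4 groups, and miR-375-3p stands at 49.2 CPM in ZSWIM8 KO, against 3.70 to 7.97 CPM in the other groups.

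Strands from neighbouring hairpins differed in level, far more on chromosome 12 than on chromosome 1. miR-200c-3p exceeded miR-141-3p, from the hairpin beside it, by 42.4 times in sgCYRANO, 50.7 times in sgNT and 63.1 times in ZSWIM8 KO; in WT the ratio of 525 rests on 1 read of miR-141-3p. On chromosome 1, miR-200b-3p exceeded miR-200a-3p by 2.53, 2.20, 2.005 and 3.06 times in sgCYRANO, sgNT, ZSWIM8 KO and WT. miR-429, from the same locus, had lower means than both, at 1.73, 1.04, 1.15 and 2.02 CPM in these groups. The ratios are of CPM of mature strands of nearly equal length, and how well each strand was captured in the libraries was not tested. Passenger strands were scarce. miR-200a-5p stood at 0.982 to 1.69 CPM, so that the 3p strand exceeded it by 2.78, 5.15, 3.65 and 3.05 times in the 4 groups in the same order. The counting intervals of both strands overlapped in sgCYRANO and WT, and did not in sgNT and ZSWIM8 KO. miR-141-5p, for which RefSeq gave no mature sequence here, appeared in the first table alone, and miR-200b-5p in the second alone. miR-200c-5p and miR-375-5p had no entry in either table used here, whose scarcest microRNA summed to 1.08 CPM over its 6 libraries.

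The first comparison asked whether these strands change when CYRANO is targeted. Of the 8 strands measured, 0 passed the threshold of 0.05 on the adjusted p (the authors' deposited table, edgeR quasi-likelihood test), and 0 had an unadjusted p under 0.05. Across all 837 microRNAs the background was 1 call, or 0.119%, which was the higher miR-7-5p, and 49, or 5.85%, had an unadjusted p under 0.05. Of the 8 strands 5 had a positive and 3 a negative log2 fold change, with a median of 0.16 against 0.01 over all microRNAs tested. The smallest adjusted p of the 8, that of miR-375-3p, was 0.980 in the authors' deposited table.

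miR-200c-3p, the family's main strand, had 70.8 CPM in sgCYRANO and 68.8 CPM in sgNT. The authors' deposited table gave a log2 fold change of 0.04 ± 0.16 (standard error implied by the deposited p), with a 95% interval that ran between 0.828-fold and 1.28-fold. miR-200b-3p had 9.60 CPM in sgCYRANO and 11.1 CPM in sgNT, with -0.21 ± 0.36 in the authors' deposited table. For these strands the means of both groups lay within each other's counting intervals. miR-200a-3p had 3.80 CPM in sgCYRANO and 5.06 CPM in sgNT, with -0.40 ± 0.55 in the authors' deposited table. In sgCYRANO these were 20 reads.

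The scarcer strands could be read library by library. miR-429, the outermost hairpin of the chromosome 1 group, had 1.08, 1.13 and 2.996 CPM in sgCYRANO, from 2, 2 and 5 reads, and 0, 1.83 and 1.29 CPM in sgNT, from 0, 3 and 2 reads. The groups overlapped, with an exact two-sided permutation p of 0.6, where 0.1 is the smallest that 3 libraries against 3 allow. miR-141-3p had 3.24, 0.564 and 1.20 CPM in sgCYRANO, from 6, 1 and 2 reads, and 2.17, 0.609 and 1.29 CPM in sgNT, from 5, 1 and 2 reads (exact permutation p = 0.9). In both groups the deepest library held most of these reads. miR-200a-5p had 0, 1.69 and 2.40 CPM in sgCYRANO and 0.434, 1.22 and 1.29 CPM in sgNT (exact permutation p = 0.7). miR-141-5p rested on 1 read in sgCYRANO and 3 reads in sgNT, a rate ratio of 0.346 with an exact 95% interval from 0.00659 to 4.31. At this depth a change of several-fold in these strands was not detectable.

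**Figure D2:**
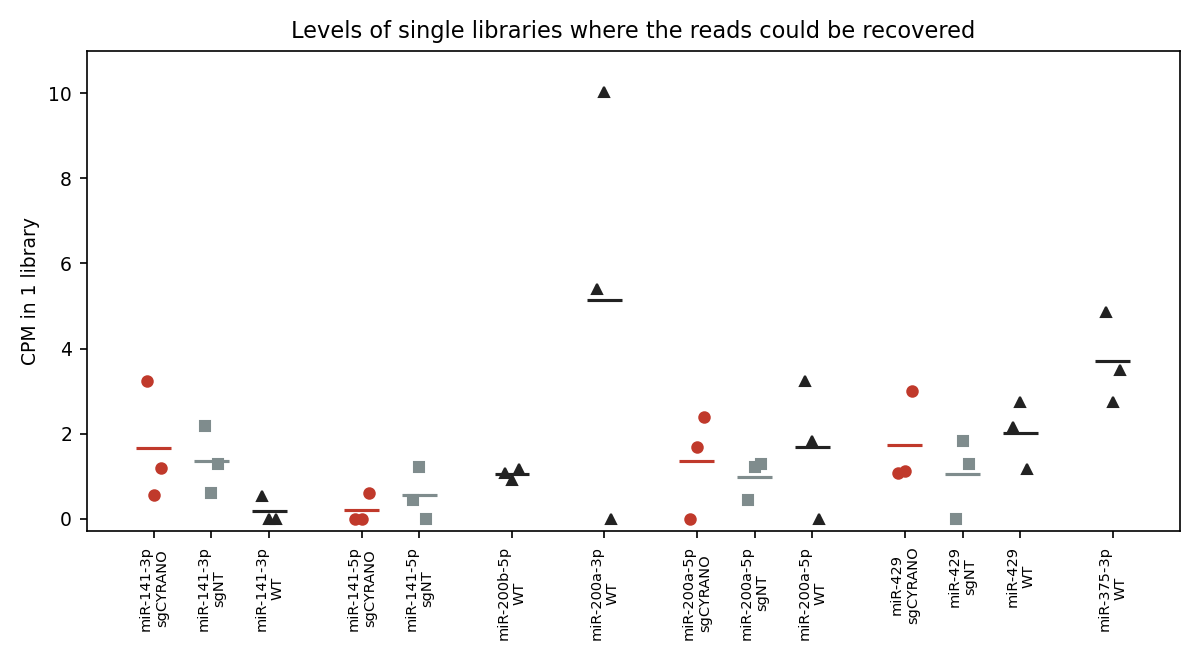
CPM in single libraries (linear axis) for the strands and groups in which only 1 combination of whole reads gave the group mean; each point is 1 library, points run from the deepest to the shallowest library, and bars are means. Libraries of sgCYRANO and sgNT overlap for each strand shown in both, and miR-200a-3p in WT ranges from 0 to 10.0 CPM. ZSWIM8 KO is not drawn, since its 2 deepest libraries have nearly equal totals and their reads cannot be told apart.

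miR-375-3p was also without a call in sgCYRANO. Its mean was 7.97 CPM in sgCYRANO and 5.89 CPM in sgNT, a log2 fold change of 0.43 ± 0.44 in the authors' deposited table. The counting intervals, 5.75 to 10.8 CPM in sgCYRANO and 4.01 to 8.34 CPM in sgNT, overlapped.

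The second comparison asked the same for loss of ZSWIM8, and here miR-375-3p stood apart in size, although it did not pass the test. Its mean was 49.2 CPM in ZSWIM8 KO and 3.70 CPM in WT, a 13.3-fold ratio of means. The 3 WT libraries had 4.86, 2.74 and 3.48 CPM, from 9, 3 and 3 reads, so that they lay close together. For ZSWIM8 KO single libraries were not resolved, since reads were sought only where the 3 libraries summed to at most 60 CPM. The authors' deposited table gave a log2 fold change of 3.69 ± 1.76, an unadjusted p of 0.0357 and an adjusted p of 0.201 (edgeR quasi-likelihood test). The interval that goes with the unadjusted p ran from 0.25 to 7.14 on the log2 scale.

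Beside this size stood a wide error and few denominator degrees of freedom. Over all 868 microRNAs, miR-375-3p had the second largest positive log2 fold change in the authors' deposited table. Its error, computed by dividing the log2 fold change by the square root of F, was 1.23, against a running median of 0.33 for microRNAs of like abundance, or 3.77 times as much. Counting itself gave 44.2 to 54.7 CPM in ZSWIM8 KO and 1.95 to 6.36 CPM in WT, intervals that did not overlap. The deposited F and p of miR-375-3p correspond to 4.34 denominator degrees of freedom, whereas the most common value in the table was 164.1. Among the 304 microRNAs with a mean of both groups of 10 CPM or more, 8 had an error at least this wide for their abundance, miR-375-3p included, which enters that set through its ZSWIM8 KO mean alone. Whether 1 ZSWIM8 KO library carries the high mean was not tested, since the tables used here give group values.

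**Figure D3:**
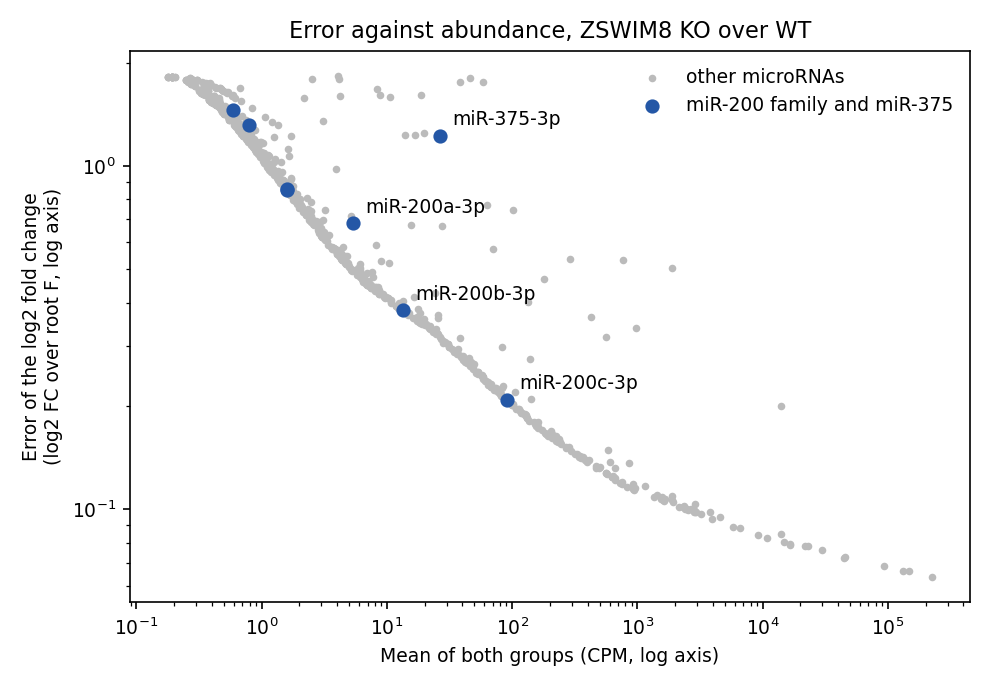
Error of the log2 fold change (its size divided by the square root of F, log axis) against the mean CPM of both groups (log axis) in the authors' deposited table for ZSWIM8 KO over WT; microRNAs with a log2 fold change within 0.05 of 0 are left out. Most microRNAs lie on 1 falling curve that holds miR-200b-3p and miR-200c-3p, while miR-375-3p lies 3.77 times above its neighbours and miR-200a-3p 1.35 times.

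Of the 8 strands measured in ZSWIM8 KO and WT, 0 passed the threshold of 0.05 on the adjusted p (the authors' deposited table, edgeR quasi-likelihood test), and 1, miR-375-3p, had an unadjusted p under 0.05. Across all 868 microRNAs the background was 86 calls, or 9.91% (41 higher, 4.72%, and 45 lower, 5.18%; 30 higher and 62 lower after centring on the median of microRNAs at 10 CPM or more), and 172, or 19.8%, had an unadjusted p under 0.05. The median log2 fold change was -0.13 over the 8 strands and 0.08 over all microRNAs tested. Relative to the median of 0.13 for microRNAs at 10 CPM or more, the direction of miR-200a-3p turned to lower, and the other 7 strands kept theirs.

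The abundant family members did not pass. miR-200c-3p had 87.9 CPM in ZSWIM8 KO and 94.6 CPM in WT, and the authors' deposited table gave -0.10 ± 0.21, with a 95% interval from 0.700-fold to 1.24-fold. miR-200b-3p had 11 CPM in ZSWIM8 KO and 15.7 CPM in WT, with -0.51 ± 0.38 and adjusted p = 0.510 per the authors' deposited table. The mean of ZSWIM8 KO lay below that of WT, and the counting intervals of 8.68 to 13.7 and 11.8 to 20.5 CPM overlapped. miR-200a-3p had 5.49 CPM in ZSWIM8 KO, from 39 reads, of which the shallowest library held 10, and 5.40, 10.0 and 0 CPM in WT, from 10, 11 and 0 reads. The shallowest WT library thus had no read of it, and the authors' deposited table gave 0.09 ± 0.69.

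The scarce strands rested on few reads. miR-141-3p had 10 reads in ZSWIM8 KO, 2 of them in the shallowest library, and 1 read in WT, in the deepest library. The rate ratio was 5.39 with an exact 95% interval from 0.767 to 234, and adjusted p was 0.337 per the authors' deposited table. In the opposite direction miR-200b-5p had 1 read in ZSWIM8 KO and 2, 1 and 1 reads in WT, a rate ratio of 0.135 with an exact interval from 0.00274 to 1.36. Its adjusted p was 0.449 per the authors' deposited table. miR-429 had 8 reads in ZSWIM8 KO and 8 in WT, where the libraries stood at 2.16, 2.74 and 1.16 CPM. miR-200a-5p had 11 reads in ZSWIM8 KO and 8 in WT. Both ratios of reads per total, 0.539 for miR-429 and 0.742 for miR-200a-5p, had intervals that spanned 1.

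**Figure D4:**
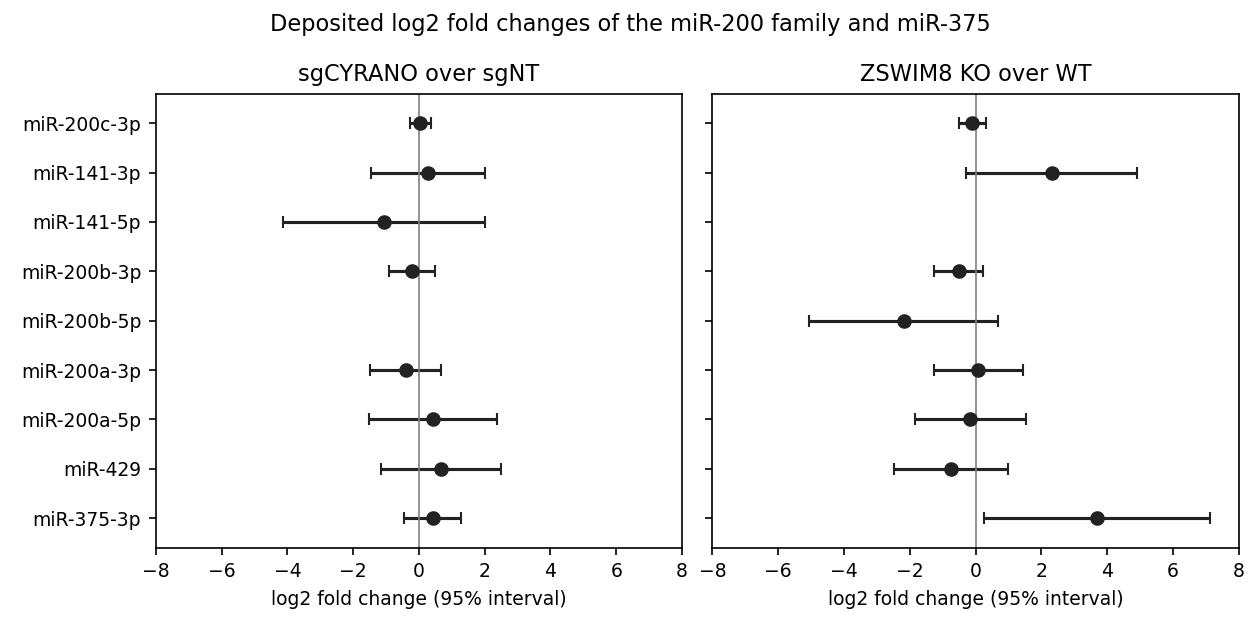
Deposited log2 fold changes (points) with 95% intervals implied by the deposited p (bars) for sgCYRANO over sgNT (left) and ZSWIM8 KO over WT (right). The intervals of miR-200c-3p are the narrowest in both panels, and miR-375-3p at 3.69 in ZSWIM8 KO over WT is the 1 strand whose interval, not adjusted for the number of microRNAs, leaves out 0.

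The responses to the 2 perturbations were set against each other over the 753 microRNAs in both tables, which share no libraries. The difference of log2 fold changes, ZSWIM8 KO over WT minus sgCYRANO over sgNT, was 3.26 ± 1.81 for miR-375-3p (normal test, two-sided, adjusted p = 0.373). For miR-200c-3p it was -0.15 ± 0.26, with an interval from -0.66 to 0.37. Of the 7 strands 0 passed, while 50 of the 753 microRNAs did. The 2 tables were scaled separately, so the higher levels of miR-200c-3p in ZSWIM8 KO and WT than in sgCYRANO and sgNT are given without a test.

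The microRNAs most like each strand were named by distance over both log2 fold changes and both mean log2 CPM values, among those in both tables. For miR-375-3p the nearest were miR-543, miR-516a-5p and miR-518b, at distances of 1.62, 2.03 and 2.38, against 0.33 to 0.36 for the 3 nearest to miR-200c-3p, which were miR-576-5p, miR-1273h-5p and miR-548bc. The nearest microRNA of miR-375-3p, miR-543, had 24.7 CPM in ZSWIM8 KO and 2.96 CPM in WT, with adjusted p = 0.297 per the authors' deposited table. Its error was 3.21 times that of microRNAs of like abundance, and those of miR-516a-5p and miR-518b were 3.54 and 3.72 times. miR-200b-3p had its nearest neighbour in miR-1294 at 0.25, miR-200a-3p in miR-561-5p at 0.33, miR-200a-5p in miR-6786-3p at 0.14, miR-429 in miR-664b-3p at 0.17 and miR-141-3p in miR-498-5p at 0.45.

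Other microRNAs of epithelial tissues did change in ZSWIM8 KO. Of 12 on a fixed list that leaves out the miR-200 family and miR-375, 10 were measured; 0 passed in sgCYRANO (1 with an unadjusted p under 0.05), and in ZSWIM8 KO 6 fell, 0 rose and 4 did not pass, beside 5.18% of all 868 microRNAs that fell and 4.72% that rose. The median log2 fold change of the list was -0.89 in ZSWIM8 KO, against 0.08 over all microRNAs tested. All 6 calls remained after centring on the median of microRNAs at 10 CPM or more. With F read with 4 degrees of freedom, which lowers the calls by construction, 2 lower calls remained over all 868 microRNAs. Most of the 6 were thus lost under that reading. The sensory and epithelial cluster miR-183, miR-96 and miR-182 fell together: miR-182-5p had 1239 CPM in ZSWIM8 KO and 2546 CPM in WT, with -1.04 ± 0.12 in the authors' deposited table (adjusted p = 8.6e-16). miR-215-5p, a p53-linked strand of intestine and kidney, had 22.9 CPM in ZSWIM8 KO and 67.5 CPM in WT, with -1.55 ± 0.29 in the authors' deposited table. miR-944, which lies in an intron of the squamous factor TP63, had 2.57 CPM in ZSWIM8 KO and 12.7 CPM in WT, and miR-31-5p had 0.696 CPM in ZSWIM8 KO and 5.66 CPM in WT; both fell (adjusted p = 0.000229 and 0.00452 per the authors' deposited table). miR-192-5p and miR-194-5p, at 0.30 ± 0.11 and 0.28 ± 0.13 per the authors' deposited table, missed the threshold.

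Neuroendocrine and mesenchymal strands gave no common direction. Of 9 neuroendocrine strands, 8 were measured in sgCYRANO, where miR-7-5p alone rose, and 7 in ZSWIM8 KO, where miR-7-5p and miR-9-3p rose, miR-184 fell and 4 did not pass. Over all microRNAs tested, 0.119% were called in sgCYRANO over sgNT, and 4.72% rose and 5.18% fell in ZSWIM8 KO, shares that also stand beside the counts of the lists that follow. The authors' deposited table for ZSWIM8 KO gave 1.43 ± 0.26 for miR-9-3p and -0.91 ± 0.29 for miR-184. miR-9-5p had 1395 CPM in ZSWIM8 KO and 558 CPM in WT and, with an error 2.92 times that of its neighbours in abundance, missed the threshold (adjusted p = 0.106 per the authors' deposited table). Of 9 mesenchymal strands 7 were measured in each table. In sgCYRANO over sgNT 0 passed, with 0 of the 7 at an unadjusted p under 0.05, and 1, miR-22-3p, rose in ZSWIM8 KO, at 0.28 ± 0.10 in the authors' deposited table (adjusted p = 0.0470), a call that was lost after centring on the median of microRNAs at 10 CPM or more. Of the blood lineages, the erythroid list had 1 member that fell in ZSWIM8 KO, miR-486-3p, and the myeloid and megakaryocytic list 1, miR-223-5p, each among 6 measured, with 0 in sgCYRANO. After the same centring 2 of the myeloid and megakaryocytic list were lower, miR-223-5p and miR-142-3p. Of 7 strands on a fixed list for other tissues, 2 were measured in each comparison, 1 typical of liver and 1 of muscle. Both were near the limit of detection, with miR-122-5p at 0.954 to 2.08 CPM and miR-1-3p at 0.748 to 1.31 CPM over the 4 groups.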

How the data were processed

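Small RNA of K562 cells was sequenced after miRNeasy extraction and NEBNext library preparation, per the labels. For the processing, the submitters listed hg19, STAR, featureCounts, edgeR, bcl2fastq and FastQC 0.11.2, with no roles or order. The columns are, per the file headers, a fold change (log2), an average CPM (log2), an F statistic (here a score), and a p-value before and after adjustment, all by the authors. Recomputed Benjamini-Hochberg values matched the adjusted ones over all rows. The design had also foreseen counts per library, which the tables do not hold.

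Group means were recovered by inverting both log2 columns (prior counts of 2 and 0.125), and summed to 999943 and 999948 CPM. The library sum was solved to equal these totals, so they are no independent test of the inversion. Multiplied by 3, low means were sums of CPM rounded to 0.001, and all 464, 469, 481 and 498 such sums under 18 CPM for sgCYRANO, sgNT, ZSWIM8 KO and WT were whole reads. The CPM of 1 read was itself fitted to place as many of these sums as possible on whole reads. That count is therefore no independent test of the recovery. Reads were printed where 1 combination remained within 0.001 CPM. The recovery and the difference test were tested on simulated data. For the recovery, the simulation used the same prior counts, rounding and fitted library totals. It therefore does not test whether the deposited values follow that model. PCR reads without molecular identifiers are not independent molecules, so intervals cover counting error only.

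A standard error is the size of a fold change on the log2 scale divided by the normal deviate that its p-value implies; ratios to like abundance use F and a running median over 51 microRNAs. Alternatives were centring, an abundance minimum, other degrees of freedom and another prior count. Members, lists and tests were chosen with earlier results of these data known. Named microRNAs are the members, miR-7-5p, those nearest by pattern, and list members that were called or abundant; others named were chosen after their values were seen. Python 3.11.15, numpy 2.4.6, pandas 2.3.3, scipy 1.17.1 and matplotlib 3.10.9 were used.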

Additional observations from a re-analysis of the deposited data

How the results depend on the processing

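No strand of the miR-200 family or miR-375 passed in the alternative runs that kept it. These were fold changes centred on the median, microRNAs under 10 CPM left out, and F read with 4 degrees of freedom. With microRNAs under 10 CPM left out, 2 of the 8 strands remained in sgCYRANO over sgNT. In ZSWIM8 KO over WT 3 of the 8 remained, and the strands left out were not tested in that run. The smallest adjusted p in each run was that of miR-375-3p in ZSWIM8 KO over WT. It was 0.0905 with microRNAs under 10 CPM left out, 0.254 after centring and 0.436 with 4 degrees of freedom. The 10 CPM filter acts on the mean of both groups, and miR-375-3p passes it only through its ZSWIM8 KO level. After centring, the log2 fold change of miR-200a-3p in that comparison was -0.039. The 86 calls of ZSWIM8 KO over WT, 41 higher and 45 lower, became 92 (30 and 62) after centring, 102 (62 and 40) without microRNAs under 10 CPM, and 3 with 4 degrees of freedom, which lowers the calls by construction. Differences between the comparisons passed for 0 of the 7 strands with errors from the root of F too, where the smallest adjusted p was 0.101. With a prior count of 1 for the mean, the group means of the members summed over the 4 groups to 505.8 CPM, against 473.8 CPM. All microRNAs summed to 1000845 and 1000874 CPM, and the main sums were 999943 and 999948 CPM. These sums do not test the prior count, since the main library sum was solved to equal them and the alternative used a fixed one. The exact permutation test, chosen after seeing the data and run for 4 strands of sgCYRANO over sgNT, cannot go below 0.1 and says nothing about stability. No paired analysis was possible because neither the tables nor the recovered reads carry replicate numbers. DESeq2 was not run, since reads were recovered for few strands, and leaving out single libraries was not run for those.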

Other observations

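Among the 304 microRNAs with a mean of 10 CPM or more, those with errors at least as wide for their abundance as that of miR-375-3p in ZSWIM8 KO over WT were, besides it, miR-512-3p, miR-516b-5p, miR-1323, miR-520a-3p and miR-526b-5p, all from the placental microRNA cluster on chromosome 19, together with miR-452-5p and miR-451a; these names were chosen after their values were seen. miR-512-3p had 83.7 CPM in ZSWIM8 KO and 33.0 CPM in WT, with a log2 fold change of 1.34 ± 1.93 in the authors' deposited table (adjusted p = 0.778). miR-516b-5p had 65.2 CPM in ZSWIM8 KO and 26.5 CPM in WT, and miR-1323 54.8 CPM in ZSWIM8 KO and 21.5 CPM in WT. Each of the 8 had a higher mean in ZSWIM8 KO than in WT, and 0 of the 8 passed in the authors' deposited table. For miR-375-3p and miR-526b-5p (14.2 CPM in ZSWIM8 KO and 6.94 CPM in WT) that direction is tied to the filter. Both reached a mean of 10 CPM only through their ZSWIM8 KO level.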
